A study of Mus musculus with 6 samples.

Results

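Cells of an epithelium are held together by tight junctions, adherens junctions and desmosomes. The genes described here belong by name to families with members in these 3 structures, and not every one of them need be a junction part. The rule goes by name and uses no measured value, although earlier results of these data were known when the set was chosen. It takes every gene on the array whose symbol is that of a claudin, a numbered cadherin, a zonula occludens protein, a desmocollin, a desmoglein or a plakophilin, and occludin (Ocln), tricellulin (Marveld2), junctional adhesion molecule A (F11r), cingulin (Cgn), desmoplakin (Dsp) and plakoglobin (Jup). This gave 70 genes of the 30927 with a symbol, of which 25 are claudins, 23 cadherins, 15 desmosome genes and 7 other tight junction genes.

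The samples are BMEL cells, a line of immortalized hepatoblasts from the liver of wild-type CD1 mouse embryos at E12.5. Hepatoblasts give rise in the fetal liver to both hepatocytes and bile duct cells. Cells were plated on collagen at 50000 per well and, 1 day later, transfected by lipid reagent with 500 ng of a mimic of mmu-miR-337-3p (3 samples) or 500 ng of a negative control mimic (3 samples). RNA was taken at 48 h and hybridised to Affymetrix arrays, 1 per sample. Both groups thus carry a transfected duplex, no untransfected cells were measured, and all samples are of a single cultured line. Whether the replicates were grown as separate cultures is not in the labels. The p-values below therefore reflect the spread of these 3 arrays per group, which limma estimates in part from all genes together. Part or all of that spread may be technical.

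Tight junctions seal the space between cells. Claudins form the strands and set which ions pass, occludin and tricellulin are further strand proteins, and zonula occludens proteins and cingulin tie the strands to actin. In adherens junctions, classical cadherins bind their like on the next cell and hold catenins inside it. In desmosomes, the desmosomal cadherins (desmocollins and desmogleins) are tied by plakoglobin, plakophilins and desmoplakin to keratin filaments. In the liver, tight junctions close the bile canaliculi between hepatocytes, and E-cadherin and N-cadherin are both found in hepatocytes.

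A microRNA lowers the level or translation of transcripts that pair with its seed, the bases 2 to 8 from its 5′ end. The transfected species is shown because it is the agent of the whole comparison. Its RefSeq mature sequence lies on GRCm38.p6 chr12:109585850-109585871, plus strand, is 22 bases long and has the seed in capitals.
mmu-miR-337-3p: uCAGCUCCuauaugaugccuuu
Sites for this seed in the transcripts of the 70 genes were not analysed here, so the values below do not separate direct targets from other genes.

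Array medians over all genes lay between 4.83 and 5.01 on the log2 scale, and arrays correlated at 0.975 to 0.985 between the groups and 0.985 to 0.989 within them (across genes, so not over independent replicates). Depth does not apply to arrays, and the number of arrays limits the precision. The files give no detection call. As a guide to background, 1086 olfactory receptor genes had a median of 3.17 and a 95th percentile of 4.83, and a gene below 4.83 on all 6 arrays is called dim here. Of the 70 genes 27 were dim, namely 12 claudins, 9 cadherins and 6 desmosomal cadherins. A fold against a dim reading can understate a change. In bulk RNA of this kind, fewer cells of a type and less RNA per cell cannot be told apart.

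After miR-337-3p mimic, 3 cadherins (Cdh2, Cdh6, Cdh13) and the claudin Cldn6 rose, and the cadherin Cdh17 and the claudin Cldn23 fell. No desmosome gene and none of the 7 other tight junction genes passed over all genes in this fit, which has no block. Of these, 5 (Ocln, Marveld2, Dsc2, Dsg2 and Dsp) had all 3 mimic arrays below all 3 control arrays at an unadjusted limma p under 0.05. Groups were apart in either direction for 26.7% of desmosome genes and 42.9% of the other tight junction genes, against 19.6% of all genes. An unadjusted limma p under 0.05 was met by 15.1% of all genes, and the share of all genes meeting both conditions was not counted. With the replicate number as a block in the fit, Ocln, Marveld2, Dsc2, Dsg2 and Cldn12 also passed as lower and Cldn9 as higher. E-cadherin (Cdh1) had a small difference that did not pass. A gene is said to have risen or fallen where limma's Benjamini-Hochberg adjusted p, taken over all 30927 genes, was under 0.05.

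In numbers, 4 of the 70 genes rose and 2 fell, 8.57% of them, against 3.57% of all genes tested (1.89% rose and 1.68% fell). At an unadjusted limma p under 0.05 there were 17 of the 70 (24.3%), 8 higher and 9 lower, against 15.1% of all genes. Mimic and control arrays did not overlap for 21 of the 70 (30.0%), against 19.6% of all genes. With the replicate number as a block in the fit, 5 rose and 7 fell (17.1%), against 8.58% of all genes. The median log2 difference of the 70 genes was -0.04 and that of all genes 0.02, with 32 of the 70 above 0 and 38 below. These shares describe the 70 genes and were not tested, and dim genes are counted in them. Among genes above the median level alone, 9 of 36 genes of the set and 1391 of 15463 of all genes passed. No called gene was dim, and of the 27 dim genes 2 (Cdh10 and Cdh12) had an unadjusted limma p under 0.05.

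**Figure D1:**
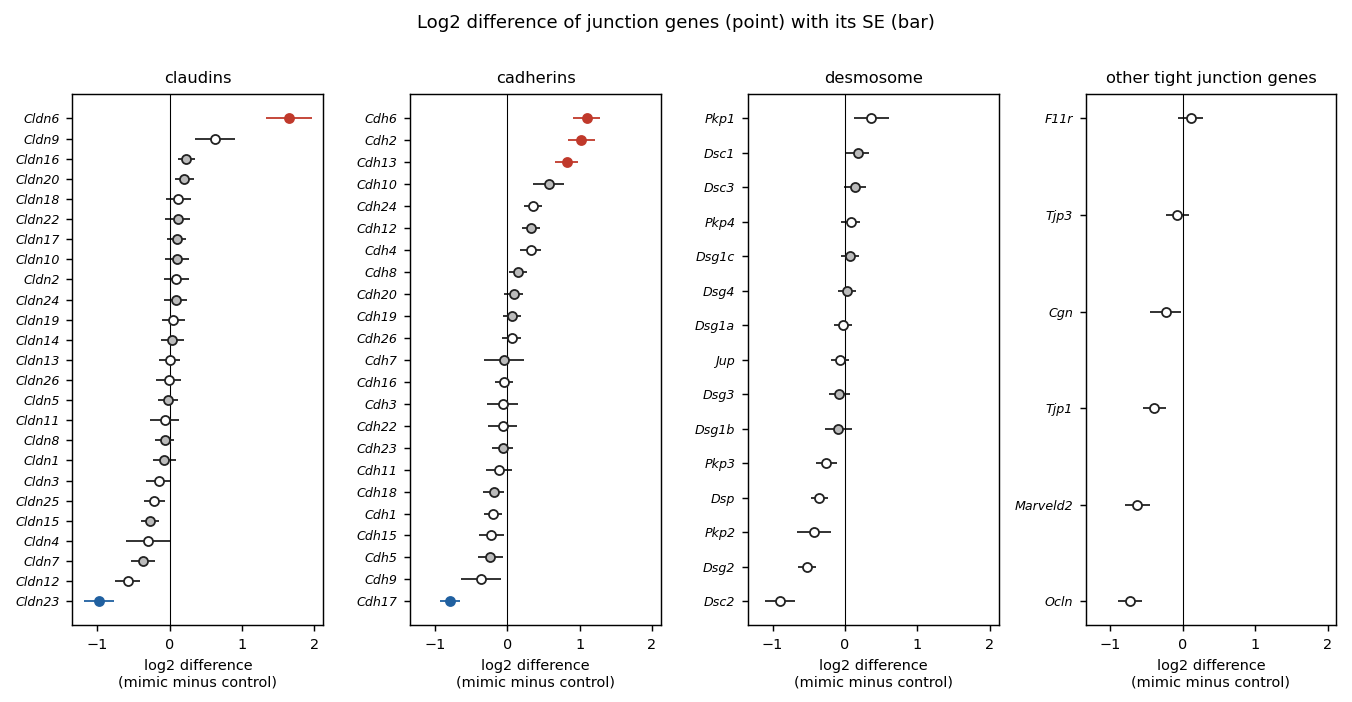
Log2 difference between miR-337-3p mimic and control mimic (x axis, mimic minus control) for the 70 genes but 1 that is not shown (rows), by family, as points with bars of 1 limma SE. Red points rose and blue points fell at an adjusted p under 0.05, other points are white, and grey points are dim genes. Differences run from -0.97 (Cldn23) to 1.65 (Cldn6).

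**Figure D2:**
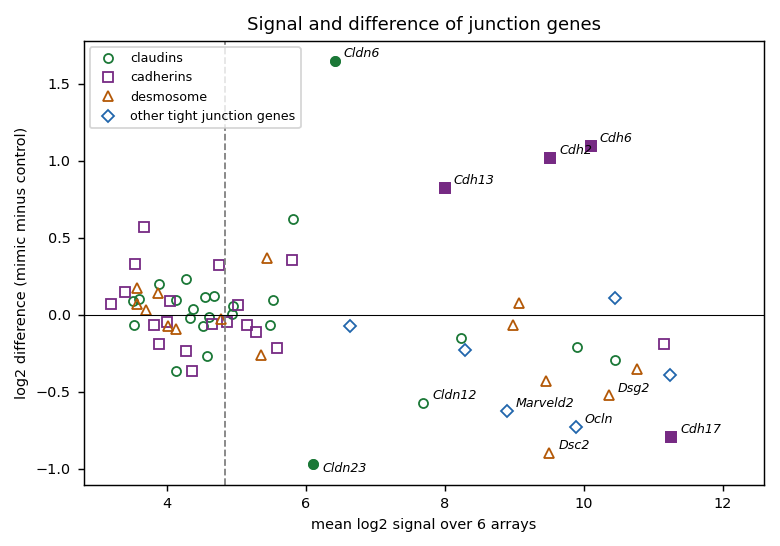
Mean log2 signal over the 6 arrays (x axis) against the log2 difference, mimic minus control (y axis), for the same genes, with 1 symbol per family, filled where the gene was called, and names for called genes and those at an unadjusted p under 0.01. The dashed line is the 95th percentile of olfactory receptor genes, 4.83, and all 6 called genes lie to its right.

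Among the cadherins, N-cadherin (Cdh2, transcript cluster 17352884), the classical cadherin of neural and mesenchymal cells that hepatocytes also carry, read 8.58, 9.28 and 9.15 in control replicates 1 to 3 and 9.99, 9.95 and 10.13 in mimic replicates 1 to 3. Every mimic array was above every control array, and control replicate 1 was the lowest of the 6. Cdh2 rose by 1.02 on the log2 scale (SE 0.19, 95% interval 0.59 to 1.45), or 2.03-fold (limma adjusted p = 0.0257). The file holds a second transcript cluster annotated to Cdh2 (17415231), with lower signals of 6.61, 7.42 and 7.47 in control and 7.67, 7.76 and 8.35 in mimic samples. The second cluster also had its mimic arrays above its control arrays, at a log2 difference of 0.76 (SE 0.27), and did not pass over all rows (limma adjusted p = 0.208).

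Cdh6 (17316120), a type II cadherin known from fetal kidney, read 9.42, 9.34 and 9.90 in control and 10.60, 10.46 and 10.88 in mimic samples. Its groups were apart, with replicate 3 the highest of each. Cdh6 rose by 1.10 (SE 0.18), or 2.14-fold (limma adjusted p = 0.0188), and the differences between arrays of the same number were 1.18, 1.12 and 0.98. Cdh13 (17506042), T-cadherin, which lacks the intracellular tail of other cadherins and is held by a lipid anchor, read 7.43, 7.83 and 7.50 in control and 8.19, 8.55 and 8.48 in mimic samples. Its groups were also apart. Cdh13 rose by 0.82 (SE 0.16), or 1.77-fold (limma adjusted p = 0.0304), a call that was lost when each array was centred on its median (adjusted p = 0.0686).

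Cdh17 (17411848), liver-intestine cadherin, which in the adult mouse is a cadherin of intestinal epithelium, read 11.79, 11.66 and 11.53 in control and 10.92, 10.97 and 10.71 in mimic samples. The groups were apart and the spread within each was small, with SDs of 0.13 and 0.14 (3 arrays each). Cdh17 fell by 0.79 (SE 0.13), a 1.73-fold difference (limma adjusted p = 0.0191). Of the 6 intestinal marker genes measured, 4 fell in the same samples (1.68% of all genes fell), among them the transcription factor Cdx2 by 1.52 (SE 0.16, adjusted p = 0.00373) and the lectin Lgals4 by 0.81 (SE 0.12, adjusted p = 0.0131). The mean log2 signal over the 6 intestinal markers ran from 8.20 to 8.46 in control arrays and from 7.21 to 7.57 in mimic arrays, and its part in the difference of Cdh17 was not tested.

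With 1 array left out of the fit, each of the 4 called cadherins kept its direction and passed in only some of the 6 fits. Cdh2 passed in the fit without control replicate 2 and in no other (limma adjusted p up to 0.0794). Cdh6 and Cdh17 passed when control replicate 3 or mimic replicate 2 was absent (up to 0.0853 and 0.0878 in the rest), and Cdh13 when control replicate 2 or mimic replicate 1 was (up to 0.127 in the rest).

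E-cadherin (Cdh1, 17505148), the classical cadherin of epithelia, read 11.28, 11.35 and 11.11 in control and 11.004, 11.14 and 11.02 in mimic samples. Those groups overlapped. The log2 difference was -0.19 with a 95% interval of -0.48 to 0.09 (limma adjusted p = 0.584), so a 2-fold fall lies outside the interval. P-cadherin (Cdh3), a classical cadherin of stratified and placental epithelium, had a difference of -0.06 (95% interval -0.55 to 0.42, adjusted p = 0.957) at means of 4.68 and 4.61. Cdh5, VE-cadherin of endothelium, was dim, as were 5 of 6 other endothelial markers measured.

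Of the type II cadherins known mostly from the nervous system, Cdh24 read 5.58, 5.64 and 5.66 in control and 6.08, 6.00 and 5.87 in mimic samples, 0.36 higher on the log2 scale (SE 0.12, limma adjusted p = 0.184). The dim genes Cdh10 and Cdh12 had differences of 0.57 (SE 0.21, adjusted p = 0.233) and 0.33 (SE 0.12, adjusted p = 0.228). For these 3 genes, and for R-cadherin (Cdh4), the mimic arrays lay above the control arrays, but none passed. Over the 23 cadherins 7 had all mimic arrays above and 1 had all below (34.8%, against 19.6% of all genes), and the median difference of the family was -0.045.

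**Figure D3:**
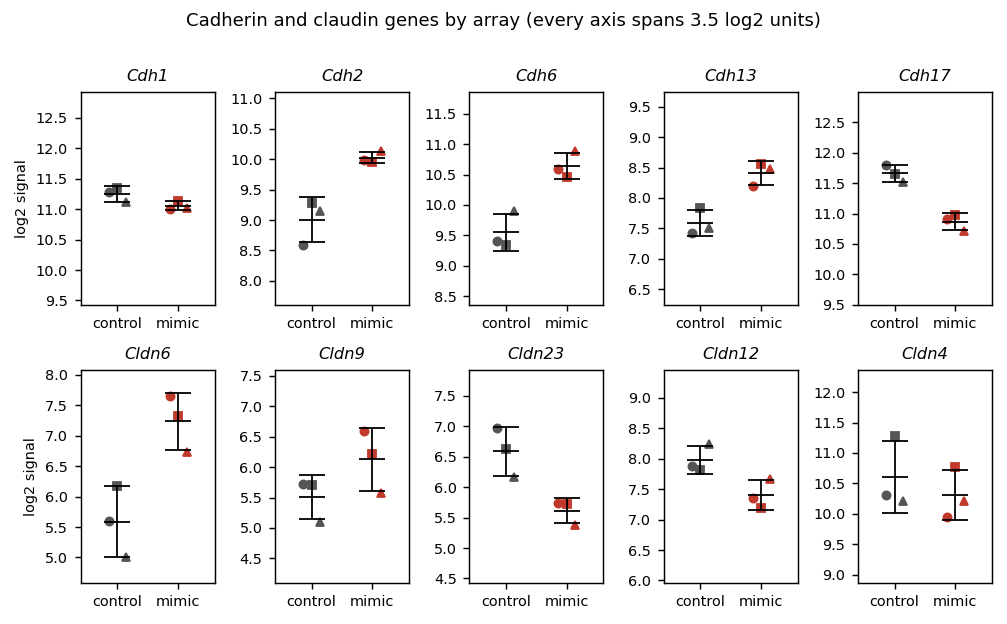
Log2 signal (y axis, every panel spanning the same range of log2 units) on each control mimic and miR-337-3p mimic array for 5 cadherins and 5 claudins. Circles, squares and triangles are replicates 1, 2 and 3, and bars are the mean and SD of 3 arrays. The groups are apart for Cdh2, Cdh6, Cdh13, Cdh17, Cldn6, Cldn23 and Cldn12 and overlap for Cdh1, Cldn9 and Cldn4.

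Among the claudins, Cldn6 (17334097), a claudin of embryonic epithelia that is low in most adult tissues, had the largest difference of all 70 genes. It read 5.59, 6.17 and 5.01 in control and 7.66, 7.33 and 6.73 in mimic samples, with the groups apart and replicate 3 the lowest of each. Cldn6 rose by 1.65 (SE 0.32, 95% interval 0.93 to 2.37), or 3.13-fold (limma adjusted p = 0.0300). Its neighbour on the chromosome and close paralog Cldn9 (17341547), a claudin known from the inner ear, read 5.72, 5.70 and 5.10 in control and 6.60, 6.22 and 5.58 in mimic samples. Those groups overlapped, while each mimic array was above the control array of the same number, by 0.88, 0.52 and 0.48. The log2 difference of Cldn9 was 0.62 (SE 0.27, limma adjusted p = 0.330, and 0.0246 with the replicate number as a block). Probes of such close paralogs may read both transcripts, and how the signal divides between Cldn6 and Cldn9 is uncertain.

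Cldn23 (17508779), a claudin of barrier-forming epithelia, read 6.97, 6.63 and 6.16 in control and 5.74, 5.72 and 5.39 in mimic samples. The groups were apart, with replicate 3 the lowest of each. Cldn23 fell by 0.97 (SE 0.21), a 1.96-fold difference (limma adjusted p = 0.0452). Cldn12 (17445370), known for the passage of calcium ions between cells, read 7.89, 7.81 and 8.23 in control and 7.35, 7.19 and 7.67 in mimic samples. Its groups were apart and the differences between same-numbered arrays were close, at -0.54, -0.62 and -0.57. Over all genes Cldn12 did not pass (log2 difference -0.57, SE 0.17, limma adjusted p = 0.132) but did so with the replicate number as a block (0.0187).

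The barrier claudins Cldn3 and Cldn4, which are neighbours on the chromosome, had overlapping groups. Cldn4 read 10.31, 11.28 and 10.21 in control and 9.95, 10.76 and 10.21 in mimic samples, with replicate 2 the highest of each group. Its log2 difference was -0.29 with a wide 95% interval of -0.99 to 0.41 (limma adjusted p = 0.796), and that of Cldn3 was -0.15 (95% interval -0.55 to 0.25, adjusted p = 0.825). Cldn1, a claudin of adult hepatocyte junctions, and Cldn7, a partner of the adhesion protein Epcam, were dim, with means of 4.56 and 4.31 in control samples. Cldn7 had a difference of -0.37 (95% interval -0.74 to 0.003, limma adjusted p = 0.337) with the mimic arrays below the control arrays. Cldn1 had one of -0.07 (adjusted p = 0.924) with overlapping groups. Cldn2, which forms a pore for cations, read 5.48 and 5.58 on average, a difference of 0.09 (95% interval -0.31 to 0.50, adjusted p = 0.907).

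Most other claudins belong to tissues other than liver. Cldn5 of endothelium, Cldn16 of the kidney tubule and Cldn17 were among the 12 dim ones, and Cldn18 of lung and stomach and Cldn11 of myelin and testis had differences of 0.12 and -0.07. The row named Cldn25 read 10.01 and 9.80 on average. That symbol is an older name of both Cldn25-ps and Cldnd1 in the gene table, so what the row measures is uncertain. The symbol Cldn26 is likewise an older name of Tmem114. Over the 25 claudins, 1 rose and 1 fell (8.0%, against 3.57% of all genes), 13 lay above 0 and 12 below, and the median difference was 0.00.

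Cldn6 and Cldn23 were as open to single arrays as the cadherins. Cldn6 passed when control replicate 2 or mimic replicate 3 was absent (limma adjusted p up to 0.111 otherwise), and Cldn23 when control replicate 3 was (up to 0.144 otherwise). Without control replicate 1 none of the 70 genes passed in limma, although 15 had an unadjusted p under 0.05 there.

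Of the 7 other tight junction genes, the strand proteins had the largest differences. Occludin (Ocln, 17295670) read 10.25, 10.45 and 10.04 in control and 9.23, 9.62 and 9.70 in mimic samples. The groups were apart, and same-numbered arrays differed by -1.02, -0.84 and -0.33. The log2 difference was -0.73 (SE 0.17), a 1.66-fold difference that did not pass over all genes (limma adjusted p = 0.0586) and passed with the replicate number as a block (0.0280).

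Tricellulin (Marveld2, 17295685), which seals the points where 3 cells meet, is encoded next to occludin. It read 9.17, 9.39 and 9.07 in control and 8.26, 8.77 and 8.72 in mimic samples. The groups were apart, and as for occludin the same-numbered difference was largest in replicate 1 (-0.91, -0.62 and -0.35). Its log2 difference was -0.63 (SE 0.17, limma adjusted p = 0.0977, and 0.0328 with the replicate number as a block).

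No scaffold gene passed. Zonula occludens 1 (Tjp1) read 11.44, 11.64 and 11.20 in control and 11.03, 11.23 and 10.86 in mimic samples. Its log2 difference was -0.39 (SE 0.16, limma adjusted p = 0.285). Its groups overlapped, with each mimic array below the control array of the same number. Tjp3 had a difference of -0.08 (95% interval -0.44 to 0.29), cingulin (Cgn) of -0.23 (-0.72 to 0.25) and F11r, an immunoglobulin-type adhesion molecule, of 0.11 (-0.28 to 0.50), all with overlapping groups.

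In the desmosome, the largest differences were those of the 2 desmosomal cadherins of simple epithelia. Desmocollin 2 (Dsc2, 17352933) read 9.91, 9.78 and 10.16 in control and 8.65, 9.06 and 9.45 in mimic samples. Its groups were apart, with mimic replicate 1 the lowest. The log2 difference was -0.90 (SE 0.21), a 1.86-fold difference (limma adjusted p = 0.0565, 0.0111 with the replicate number as a block, and 0.0354 without mimic replicate 3). Desmoglein 2 (Dsg2, 17348812), its partner in the same desmosomes, read 10.58, 10.63 and 10.64 in control and 9.94, 10.18 and 10.16 in mimic samples. The control arrays lay close together, with an SD of 0.03 (3 arrays), and the mimic arrays were all lower. The log2 difference was -0.53 (SE 0.12, limma adjusted p = 0.0606, and 0.0290 with the replicate number as a block).

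Desmoplakin (Dsp, 17286641), which links the plaque to keratin filaments, read 10.92, 10.96 and 10.94 in control and 10.48, 10.69 and 10.60 in mimic samples. Those groups were apart by a small step of -0.35 on the log2 scale (SE 0.12, limma adjusted p = 0.179). Plakophilin 2 (Pkp2), the plakophilin of simple epithelia, had a difference of -0.43 (SE 0.23, adjusted p = 0.464) with overlapping groups, and Pkp3 one of -0.26 (SE 0.15, adjusted p = 0.487) with the groups apart. Plakoglobin (Jup), shared by desmosomes and adherens junctions, had a difference of -0.07 with a 95% interval of -0.35 to 0.21, and Pkp4 one of 0.08.

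The desmosomal cadherins of stratified epithelium were dim or near it. Dsc1, Dsc3, Dsg1b, Dsg1c, Dsg3 and Dsg4 were dim, and Dsg1a averaged 4.80 in control and 4.77 in mimic samples. Their differences ran from -0.09 (Dsg1b) to 0.17 (Dsc1). Of 6 keratinocyte markers 4 were dim too. Dsc2 and Dsg2 lie in the same gene cluster as these genes. Ocln, Dsc2 and Dsg2 also passed with a trend in the prior variance and with the dimmer genes left out, and Dsc2 with quantile normalization. Over the 15 desmosome genes 0 passed over all genes in limma without a block. With the replicate number as a block 2 fell (13.3%, against 8.58% of all genes). Without it 3 (20.0%, against 15.1% of all genes) had an unadjusted limma p under 0.05, and 6 differences lay above 0 and 9 below.

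**Figure D4:**
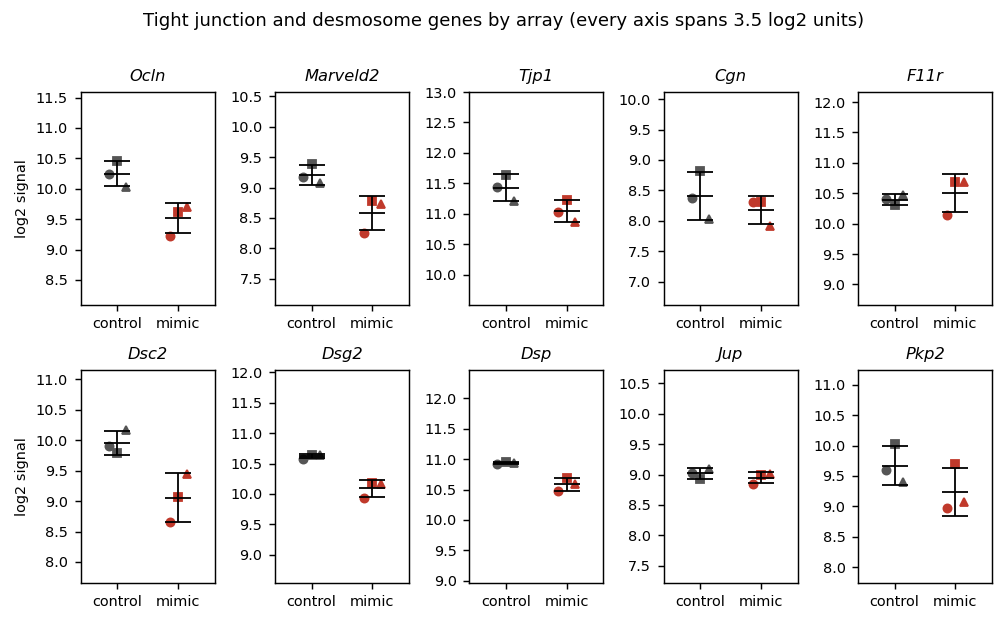
Log2 signal (y axis, every panel spanning the same range of log2 units) on each control mimic and miR-337-3p mimic array for 5 tight junction and 5 desmosome genes. Circles, squares and triangles are replicates 1, 2 and 3, and bars are the mean and SD of 3 arrays. Mimic arrays lie below control arrays for Ocln, Marveld2, Dsc2, Dsg2 and Dsp, and the groups overlap for Tjp1, Cgn, F11r, Jup and Pkp2.

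Neighbouring genes of a family did not all differ alike. Occludin and tricellulin were both lower, at -0.73 and -0.63, and Cldn6 and Cldn9 both higher, at 1.65 and 0.62. Cdh2 lies beside the desmocollin Dsc3 in the gene table and Cdh6 beside Cdh9, and their differences were 1.02 and 0.14, and 1.10 and -0.37. Cdh3 and Cdh1, also neighbours, had -0.06 and -0.19.

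A list of 82 related genes outside the 70 held 54 further genes of the tight junction, adherens junction and desmosome, 7 gap junction genes and 21 regulators of epithelial junction genes. Of the 54, limma called 2 as higher and 4 as lower (11.1%, against 3.57% of all genes tested). Of all 82 it called 3 and 8 (13.4%). Of the 82 genes 75 were not dim, while the share over all genes takes in dim genes. Among genes above the median level alone, 13 of 69 genes of the list and 1391 of 15463 of all genes passed. With the replicate number as a block 6 of the 82 rose and 16 fell (26.8%, against 8.58% of all genes). Of 28 further tight junction and polarity genes 4 fell and 0 rose (14.3%), and with the block 8 fell and 2 rose. The genes that passed with the block alone were Marveld1 (adjusted p = 0.0146) and Arhgef2 (0.0395) as higher, and the polarity gene Mpp5 (0.0184), the adhesion receptor gene Cxadr (0.0374), the scaffold gene Magi3 (0.0445) and Ildr2 as lower. Ildr1, which encodes angulin-2, a protein that brings tricellulin to the points where cells meet, read 7.62, 7.64 and 7.26 in control and 5.39, 5.77 and 5.78 in mimic samples. All 3 mimic arrays were far below, and Ildr1 fell by 1.86 (SE 0.16, limma adjusted p = 0.00318). Its relatives differed from it in size. Ildr2 had a log2 difference of -0.53 (adjusted p = 0.0729, and 0.0319 with the replicate number as a block) and Lsr, which encodes angulin-1, one of 0.03 (adjusted p = 0.956).

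The adhesion molecule gene Jam2, a relative of F11r, read 8.51, 8.78 and 8.89 in control and 6.99, 7.48 and 7.75 in mimic samples. Its groups were apart, and it fell by 1.31 (SE 0.20, limma adjusted p = 0.0137). The polarity gene Pard3b read 8.84, 8.63 and 8.85 in control and 7.10, 7.54 and 7.32 in mimic samples. It fell by 1.45 (SE 0.15, adjusted p = 0.00386), and its paralog Pard3 had a difference of 0.07 (adjusted p = 0.899). Crb3, which encodes a Crumbs polarity protein of apical membranes, fell by 0.79 (SE 0.15, adjusted p = 0.0305). Ildr1, Jam2 and Pard3b passed whichever single array was left out, and Crb3 in 1 of 6 (adjusted p up to 0.128).

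Of 20 further adherens junction genes 2 rose and 0 fell (3.57% of all genes were called), and with the replicate number as a block Lima1, which encodes an actin-binding protein, also passed as lower (adjusted p = 0.0446). Both genes that rose encode catenins of the p120 family, which bind cadherin tails. Ctnnd1, p120 catenin itself, read 9.87, 10.09 and 9.86 in control and 10.56, 10.58 and 10.50 in mimic samples and rose by 0.60 (SE 0.12, limma adjusted p = 0.0376). Arvcf read 5.23, 5.66 and 5.58 in control and 6.17, 6.15 and 6.15 in mimic samples and rose by 0.67 (SE 0.14, adjusted p = 0.0445). For both genes the mimic arrays lay close together and above all control arrays, and neither passed in any fit that left out 1 array (adjusted p up to 0.15 and 0.144). Both calls were also lost with median centring. Beta-catenin (Ctnnb1) and alpha-catenin (Ctnna1) had differences of 0.23 (adjusted p = 0.476) and -0.15 (adjusted p = 0.697).

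The keratins of simple epithelium that attach to desmosomes, Krt8 and Krt18, had differences of 0.10 (limma adjusted p = 0.848) and 0.16 (adjusted p = 0.667). None of the 6 further desmosome and plaque genes and none of the 7 gap junction genes passed over all genes. At an unadjusted limma p under 0.05 there were 2 of the plaque genes (33.3%), both lower, against 15.1% of all genes. The gap junction genes had 4 (57.1%), 2 higher and 2 lower. With the replicate number as a block the connexin gene Gja1 passed as higher (limma adjusted p = 0.0238). Gjb1 and Gjb2, the connexins of hepatocytes, passed as lower (0.0231 and 0.0328). Together they were 42.9% of the gap junction genes, against 8.58% of all genes.

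Of the 21 regulators, 20 of them not dim, 1 rose and 4 fell (23.8%, against 3.57% of all genes, dim ones included). With the replicate number as a block the splicing factor gene Esrp2 also passed as lower (limma adjusted p = 0.0231). Zeb1, a repressor of E-cadherin and other epithelial genes, read 6.34, 6.91 and 6.75 in control and 7.27, 7.68 and 7.64 in mimic samples and rose by 0.87 (SE 0.18, limma adjusted p = 0.0422). That call of Zeb1 was lost when each array was centred on its median. The other 6 genes of the Snail, Zeb and Twist families did not pass, with differences of 0.10 for Snai1, 0.40 for Snai2 (adjusted p = 0.906), 0.35 for Snai3 (adjusted p = 0.185), 0.10 for Zeb2, 0.02 for Twist1 and 0.40 for Twist2 (adjusted p = 0.442). All 6 differences were above 0, and the groups were apart for Snai3 and overlapped for the others. The transcription factor gene Klf4 fell by 1.79 (SE 0.30, adjusted p = 0.0191), the adhesion protein gene Epcam by 1.00 (SE 0.13, adjusted p = 0.00682), and the serine protease inhibitor genes Spint1 and Spint2 by 1.03 (SE 0.19, adjusted p = 0.0269) and 0.55 (SE 0.12, adjusted p = 0.0462). For all 5 genes the groups were apart. With 1 array left out Zeb1 passed in 1 of 6 fits (adjusted p up to 0.139), Klf4 and Spint1 in 3 each (up to 0.0789 and 0.0808), Spint2 in 0 (up to 0.175) and Epcam in 6.

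**Figure D5:**
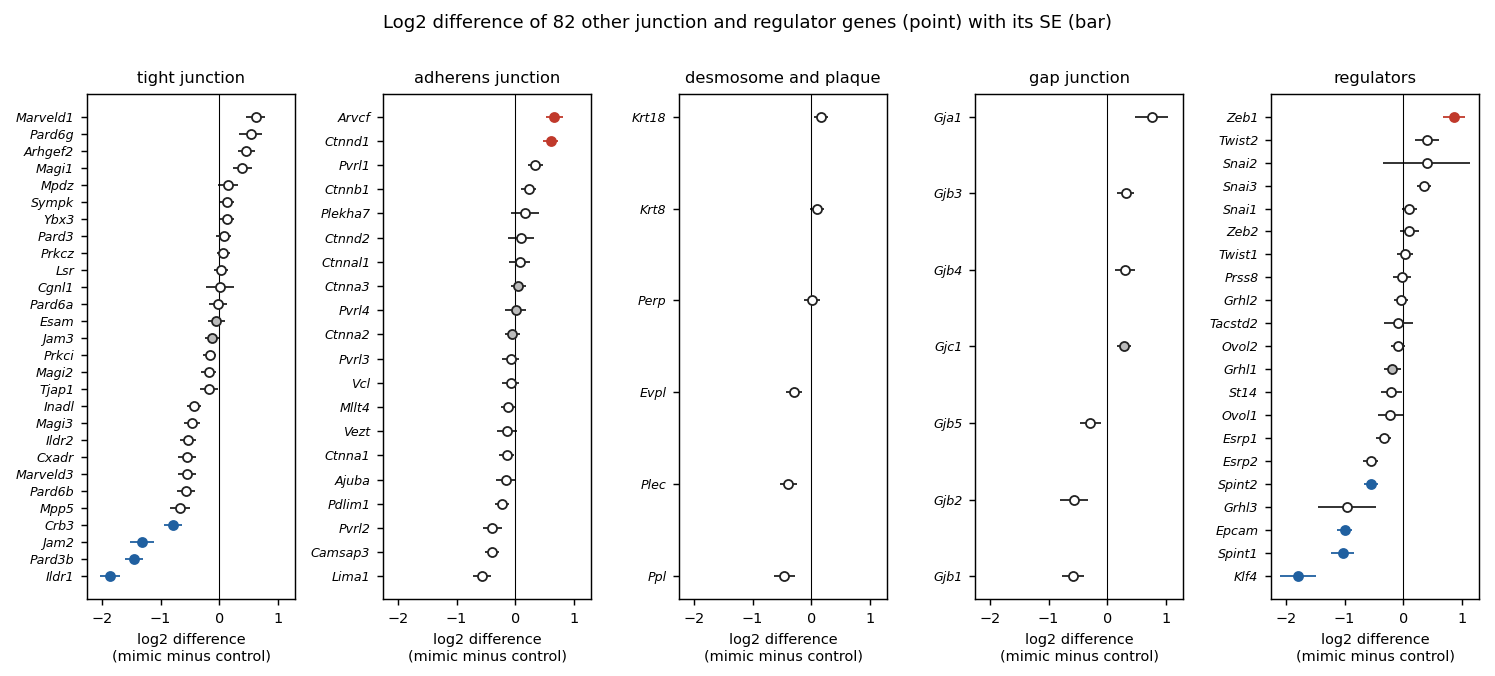
Log2 difference, mimic minus control (x axis), of 82 other genes (rows) in 5 groups, 4 of junction genes and 1 of regulators, as points with bars of 1 limma SE. Red points rose and blue points fell at an adjusted p under 0.05, other points are white, and grey points are dim genes. The largest fall is that of Ildr1, -1.86, and the largest call upward that of the regulator Zeb1, 0.87.

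The windows of 250 bases before the RefSeq start sites (GRCm38.p6) of 2 genes that rose and of the neighbours occludin and tricellulin are shown, because the former had higher and the latter lower mimic readings and because Zeb1 binds a known motif, CACCTG. Capitals mark this motif, searched on both strands, where it reads CAGGTG on the other. Each is read 5′ to 3′ on the strand of its gene, and for Ocln and Marveld2, which have 2 entries each, the first listed is printed.
Cldn6 (chr17:23679115-23679364, plus strand): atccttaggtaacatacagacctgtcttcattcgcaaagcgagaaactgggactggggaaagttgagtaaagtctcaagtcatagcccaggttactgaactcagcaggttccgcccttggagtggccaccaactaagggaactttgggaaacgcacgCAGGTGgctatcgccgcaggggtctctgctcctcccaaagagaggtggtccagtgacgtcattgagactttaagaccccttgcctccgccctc
Cdh6 (chr15:13173676-13173925, minus strand): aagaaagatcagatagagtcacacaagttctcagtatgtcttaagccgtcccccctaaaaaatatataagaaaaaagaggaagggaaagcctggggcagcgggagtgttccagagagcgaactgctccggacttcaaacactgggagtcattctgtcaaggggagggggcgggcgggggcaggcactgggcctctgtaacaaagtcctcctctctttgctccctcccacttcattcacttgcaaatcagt
Ocln (chr13:100552719-100552968, minus strand): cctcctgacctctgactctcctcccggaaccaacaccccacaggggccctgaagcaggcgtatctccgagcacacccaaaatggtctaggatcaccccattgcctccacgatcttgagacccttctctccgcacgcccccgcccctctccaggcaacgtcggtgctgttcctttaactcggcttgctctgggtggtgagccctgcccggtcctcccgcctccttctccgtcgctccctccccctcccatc
Marveld2 (chr13:100616972-100617221, minus strand): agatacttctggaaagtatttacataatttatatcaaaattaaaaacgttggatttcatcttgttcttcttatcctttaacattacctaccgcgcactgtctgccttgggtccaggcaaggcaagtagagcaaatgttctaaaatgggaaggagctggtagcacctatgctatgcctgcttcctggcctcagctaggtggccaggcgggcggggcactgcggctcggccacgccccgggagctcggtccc
The Cldn6 window holds 1 match and the other 3 hold none. The second entry of Ocln, which starts further downstream, holds 2, and that of Marveld2 none. RefSeq windows were at hand for 41 of the 70 genes, of which 9 (22.0%) hold the motif, against 19.4% of all 27025 genes with a window and 17.2% of all 32851 windows. Of the called genes only Cldn6 and Cdh6 had a window. None was at hand for Cdh2, Cdh13, Cdh17 and Cldn23, nor for Cdh1, Dsc2 and Dsg2. A match is no evidence of binding, and no promoter activity was measured.

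The identity of the cells was checked on their marker genes. Of the hepatoblast and hepatocyte markers, Krt8, Krt18, Apob, Hnf4a and Epcam read above 9 on average in both groups, while the surface marker Dlk1, at 4.71 and 4.88, was at the background guide, and Afp and Alb were low at 6.54 each in control samples. The mean log2 signal over these 10 markers ran from 8.91 to 9.25 in control and from 8.58 to 8.74 in mimic arrays. Of the 10, 3 fell (1.68% of all genes fell), and with the replicate number as a block Alb did too (limma adjusted p = 0.0249). The list was mixed, with 4 differences above 0 and 6 below, from -1.22 to 0.20. Of 5 biliary markers 2 rose (1.89% of all genes rose), and the mean over the 5 ran from 8.58 to 9.18 and from 9.32 to 9.60. The biliary markers did not all go the same way, with 3 differences above 0 and 2 below, from -0.38 to 2.42. Of the lower ones 1 had an unadjusted limma p under 0.05 with its groups apart. The 6 endothelial markers had means of 4.49 to 4.60 and 4.45 to 4.53, with 5 of them dim and 0 called in limma (0 at an unadjusted p under 0.05), and the 6 stratified epithelium markers had means of 4.44 to 4.69 and 4.35 to 4.61, with 0 called (0 at an unadjusted p under 0.05). Of 6 mesenchymal markers Col1a1 alone passed, rising by 0.59 (SE 0.12, limma adjusted p = 0.0384), with list means of 6.55 to 6.63 and 6.54 to 6.72. Of 3 leukocyte markers Cd68, which other cells also express, rose by 1.18 (SE 0.23, adjusted p = 0.0320), while Ptprc and Emr1 were dim, and list means ran from 4.55 to 4.84 and from 5.02 to 5.05. The part of the hepatic, biliary, mesenchymal and leukocyte markers in the differences of the 70 genes was not tested.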

How the data were processed

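The deposited values are log2 signals of 41345 transcript clusters on each of 6 arrays. How the authors normalized them, with what software and on which array design, was not stated in the labels or headers. The log2 scale follows from the authors' comparison table, whose bi-weight group averages are called log2, per the file headers, and lie on the scale of the arrays' values. That deposited table also holds a signed linear fold change, treated here as a score since none of its values lies between -1 and 1, the ratio itself, and 2 kinds of p-value, from ANOVA and after FDR adjustment. An ANOVA recomputed here matched the deposited p-value within 0.001 for 100% of the 30927 genes, at 1 row per symbol. Of the 70 genes, 0 have, in the authors' deposited table, an FDR p-value under 0.05 and 17 have an ANOVA p-value under 0.05. Of the 70 genes 1 is counted but not reported here by name. The lowest FDR p-value of the 70 is 0.1502, that of Cdh17.

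Symbols were taken from the comparison table (34471 rows joined by identifier), which left 30927 genes. Of several rows of a symbol the one with the highest mean was used, and among the 70 genes only Cdh2 has several. Symbols of 68 of the 70 genes are current in the GRCm38.p6 gene table. No source used here names the annotation's genome build, so coordinates are printed only for RefSeq sequences.

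Groups were compared with limma 3.58.1 (lmFit, eBayes) in R 4.3.3, with no filter and no block, with Benjamini-Hochberg adjustment over all genes tested. The fit was tested on simulated data with independent noise and no pairing, where the changed genes all lay above the median level. It recovered 56 of 100 genes with a true log2 difference of 1 and 91 of 100 with one of 2, with 5 false calls. A gene that did not pass may thus still differ by 2-fold. Replicate numbers were checked for pairing. Same-numbered arrays had deviations from their group means that correlated at 0.431, 0.370 and 0.442, and other pairs ranged from -0.292 to -0.119. Such deviations cancel out within a group, so positive same-numbered values make the other pairs negative on balance, and the latter add no separate support. On the same-numbered values the numbers were taken to pair the arrays, from the values and not from the labels. Values with the replicate number as a block are given where they change a call. The alternatives tried were that block, leaving out arrays, a filter on dim genes, other scalings, other variance models, another row per symbol and a plain ANOVA. The 70 genes, the lists and the tests were chosen with earlier results of these data known. Genes named are those with an unadjusted p under 0.05 among the 70, a set of well known members fixed by name, and called genes of the junction list. Other genes named, such as paralogs and members of the marker lists, were chosen after their values were seen, as was the background guide from olfactory receptor genes. The table was handled with pandas 2.3.3 in Python 3.11.15.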

Additional observations from a re-analysis of the deposited data

How the results depend on the processing

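The 6 called genes (Cdh2, Cdh6, Cdh13, Cldn6, Cdh17 and Cldn23) kept their direction under all 15 alternatives run, but not their calls. With the replicate number as a block 12 of the 70 genes passed and 2654 of all genes, against 6 and 1103 without it. The 6 were among the 12, and the others were Cldn9, Cldn12, Dsc2, Dsg2, Marveld2 and Ocln. The block changed no other call among the 70. With 1 array left out 0 to 3 of the 70 and 322 to 721 of all genes passed, in fits that hold fewer arrays, and the lowest counts were those without control replicate 1. Without both arrays of replicate 1, 0 of the 70 (13 at an unadjusted limma p under 0.05) and 77 of all genes passed, and the cause was not tested. A plain ANOVA per gene with the same adjustment called 0 of the 70 (17 at an unadjusted p under 0.05) and 4 of all genes, and it does not share the estimate of spread across genes. Between 5 and 9 of the 70 passed with the dimmer genes left out, with quantile normalization, with median centring, with the other variance models and with the other row per symbol. Dsc2, Dsg2 and Ocln were gained with the dimmer genes left out, a fit that holds 36 of the 70, and with both trended variance models, and Dsc2 with quantile normalization, while Cdh13 was lost with median centring. Of the junction list 7 genes, all lower, passed with median centring, against 11, so the upward calls of Zeb1, Ctnnd1 and Arvcf were lost. Among the 32 genes whose differences were followed through the alternatives, signs turned for 5 uncalled ones in fits without 1 array, where the log2 differences ran from -0.31 to 0.0842 for Cdh3, -0.21 to 0.0724 for Cldn1, -0.0858 to 0.26 for Cldn2, -0.52 to 0.0483 for Cldn4 and -0.21 to 0.0148 for Tjp3. Neither file holds a detection call, which limits what dim genes can show.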
